A study of Mus musculus with 16 samples.

Results

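The response of mouse embryonic stem (ES) cell clone 15 to the loss of Rybp was described over 2 times after deletion. The members are all arrays titled with this clone, 8 of the 16 arrays of the series, and were chosen by title and by no measured value. The series was made from 129/B6 hybrid ES cells, a pluripotent cell type of the preimplantation embryo, in which 4-hydroxytamoxifen (OHT) served to deplete Rybp. In clone 15, 4 arrays labelled as wild-type control came from cells without OHT and 4 arrays labelled Rybp-KO came from cells given OHT at 800 nM for 24 hours. Each set of 4 holds 2 arrays at day 4 and 2 at day 12, numbered replicate 1 and replicate 2. Below, KO stands for the OHT+ arrays and control for the OHT- arrays. The remaining 8 arrays are the same groups of clone 10 and serve only as a comparison.

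Several features limit clone 15 as a model. It is 1 clone, so its 8 arrays describe this cell line and not Rybp-deficient ES cells in general. No control received OHT, so effects of the drug, or of a recombinase it may activate, cannot be told apart from effects of Rybp loss. The labels' protocols give a medium with serum and ESGRO, a leukaemia inhibitory factor product, and growth either on gelatin or on feeders, irradiated mouse embryonic fibroblasts, without naming the surface for any array. Whether replicates 1 and 2 came from separate cultures is not stated, so the p-values rest on array-to-array spread that could be technical.

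Rybp (RING1 and YY1 binding protein) is a subunit of variant Polycomb repressive complex 1 (PRC1), an enzyme complex that places ubiquitin on histone H2A and helps to keep developmental and germ cell genes silent. Variant PRC1 complexes that hold PCGF6 with E2F6, MGA and L3MBTL2 are known for binding promoters of germ cell and meiotic genes in ES cells. ES cultures also hold a rare, transient state that expresses genes of the 2-cell embryo, such as those of the Zscan4 and Tcstv families.

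RNA levels were read on Affymetrix mouse arrays with 45101 probe sets, and the deposited values are linear intensities with a median of 93.3 on every array. Values were taken to log2 and fitted with limma, with OHT and day as terms, and a gene was called higher or lower at a Benjamini-Hochberg adjusted p under 0.05 over 18195 entries. A log2 fold change is always KO minus control, with its standard error (SE). Dim intensities vary most, so a second fold, called the floored fold, is given after raising low values to 28.3, which is the 25th percentile of each array. The 2 replicates at day 4 differed more than those at day 12. Among 10842 genes above the array median, 9.73% of genes in controls and 9.36% in KO differed by over 2-fold between the day 4 replicates, against 3% and 1.64% at day 12. All 12 ES cell identity markers lay above the array median on every array, with Pou5f1 at 11135 to 13405 in controls and 7558 to 11642 in KO, and 0 of the 12 passed the test.

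The targeted gene was read by 2 probe sets, which moved in opposite directions in clone 15. Both also carry the symbol of a Rybp pseudogene, and the sources used here do not say where they lie relative to the deleted part of the gene. Probe set 1421111_at read 2448 and 3200.2 at day 4 and 2759.9 and 3170.5 at day 12 in the controls, and 84.9 and 125 at day 4 and 249 and 256 at day 12 in the KO arrays. All 4 KO arrays lay far below all 4 controls, with a log2 fold change of -4.16 ± 0.30 (adjusted p = 0.0121), -4.76 at day 4 and -3.55 at day 12. Probe set 1428219_at read 297 and 255 at day 4 and 157 and 170.4 at day 12 in the controls, and 4374 and 7579.9 at day 4 and 4606 and 5148 at day 12 in the KO arrays. Here all KO arrays lay above all controls, with a log2 fold change of 4.64 ± 0.22 (adjusted p = 0.00514). In clone 10, from the fit to all 16 arrays, the first probe set read -4.74 and the second 1.13 with an adjusted p of 0.0981. At 1428219_at the control mean was 219.9 in clone 15 and 2102.5 in clone 10, while the KO means were 5427 and 4774. The clones thus differed at this probe set mainly in the arrays without OHT, a difference that was not tested by itself. The difference between the clones in the KO effect at 1428219_at was 3.51 on the log2 scale (adjusted p = 0.0503), just outside the threshold. It passed under 6 of 7 other settings, with adjusted p from 0.00125 with a mean-variance trend to 0.0486 with a replicate block, but not with every probe set tested (0.110) nor in any of 16 fits with 1 array left out (0.0554 to 0.178).

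Outside Rybp, the response of clone 15 at both days was made almost entirely of increases, and included genes of the 2-cell embryo, of meiosis and of germ cell RNA regulation. Of 18195 entries, 44 were higher in KO, which is 0.242% of those tested, and 2 were lower, 0.011%. Without the Rybp probe sets this leaves 43 genes higher and 1 gene, Tmem100, lower. The 43 increases ran from 1.14 to 8.61 on the log2 scale with a median of 2.55, while the median over all entries was 0.02. In each of the 43 genes both KO arrays exceeded both control arrays at day 4 and again at day 12. Such a separation at both days, with no test, was seen upward in 5.62% and downward in 3.87% of all entries. In 26 of the 43 genes the mean control intensity lay below the array median, and 39 of the 43 still passed with low values raised to the floor. At an unadjusted p under 0.05, 982 entries were higher and 617 lower.

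The number of calls rests on each array of this small design. With 1 array left out the count of entries higher was 0 without KO day 12 replicate 1, 0 without KO day 12 replicate 2, 3 without KO day 4 replicate 1 and 19 without KO day 4 replicate 2. Without 1 control array it was 17 (day 4 replicate 1), 9 (day 4 replicate 2), 10 (day 12 replicate 1) and 22 (day 12 replicate 2). In these refits all 44 entries kept their sign. By limma at an unadjusted p under 0.05, 782 entries were higher and 553 lower without KO day 12 replicate 1, and 745 and 499 without KO day 12 replicate 2. Without KO day 4 replicate 2, 16 of the 44 passed. Other settings moved the count both ways. It was 96 higher and 11 lower with the spread pooled over all 16 arrays, where 38 of the 44 passed again. It was 41 higher with the mean of a gene's probe sets (39 of the 44). With every probe set tested it was 32 higher (29 of the 44, with Dazl, Sycp1, Rhox6 and Fabp5 among the 15 lost). The lowest of these counts came with a block for replicate number within each day, 1 higher and 0 lower. The 43 entries lost there kept their sign. The fit reported holds no such block.

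The largest increases included genes listed for the 2-cell and preimplantation embryo, with control means below the array median in every one that was called. In bulk RNA, more cells in a state and more RNA per cell cannot be told apart, which holds for every gene group described. On this list 26 of 51 genes were measured by a probe set of their own. Of these 9 were higher, where 0.242% of all entries were, and 0 lower. KO lay above control at both days with no overlap in 15, 57.7% against the 5.62% of all entries. The list's median log2 fold change was 1.87, or 1.10 with low values raised to the floor. Of its members, 4 (Gm20767, BC080696, AF067061 and Gm4850) were put on the list from earlier results of these data and are no independent evidence of its direction. Gm20767, AF067061 and BC080696, the genes with the largest estimates of all, are among these 4. Without the 4, 22 genes remained, of which 5 were higher and 11 had KO above control at both days. The median of these 22 was 0.80. They too were put on a list chosen with earlier results of these data known, so they are no independent evidence either. The feeder fibroblast list, read beside this, had a summed intensity of 22726 to 27420 in controls and 23342 to 30035 in KO. Of its 38 measured genes 26 had a positive estimate, and the median was 0.23.

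Gm20767 read 3.15 and 0.989 at day 4 and 3.49 and 31.5 at day 12 in the controls, and 2123 and 899 at day 4 and 2119 and 1984 at day 12 in the KO arrays. The log2 fold change of 8.61 ± 0.84 (adjusted p = 0.0213) shrinks to a floored fold of 57.9, because all but 1 control value lay under the floor. AF067061, which lies near it on chromosome 13, read 83.7 and 8.93 at day 4 and 15.6 and 12.3 at day 12 in controls and 7818 and 2906 at day 4 and 9234 and 6846 at day 12 in KO. That is a log2 fold change of 8.30 ± 0.78 (adjusted p = 0.0198) and a floored fold of 166, with no overlap at either day. BC080696 read 2.66 to 31.0 in controls and 1741 to 2624 in KO, a log2 fold change of 8.30 ± 0.64 (adjusted p = 0.0135) and a floored fold of 74.0.

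Ubtfl1, a relative of the ribosomal DNA factor UBTF that is expressed in early embryos, read 4.21 and 2.63 at day 4 and 23.5 and 1.92 at day 12 in controls and 831 and 387 at day 4 and 735 and 656 at day 12 in KO. Its log2 fold change was 7.05 ± 0.77 (adjusted p = 0.0304) and its floored fold 22.2. Usp17la, a deubiquitinating enzyme, read 88.6 and 18.1 at day 4 and 63.1 and 60.4 at day 12 in controls and 6628 and 1928 at day 4 and 4619 and 3958 at day 12 in KO, a log2 fold change of 6.30 ± 0.58 (adjusted p = 0.0198). In both genes KO day 4 replicate 2 was the lowest KO array and still lay far above every control. Across the 9 list members that were higher, KO day 4 replicate 2 was the lowest of the 4 KO arrays in 7.

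Gm4850 rose by 5.25 ± 0.60 on the log2 scale (adjusted p = 0.0371), with 7.25 to 49.7 in controls and 501 to 599 in KO. Zfp352, a zinc finger gene of the 2-cell stage, read 71.7 and 40.8 at day 4 and 77.8 and 69.5 at day 12 in controls and 465 and 395 at day 4 and 584 and 600.4 at day 12 in KO, a log2 fold change of 3.0 ± 0.20 (adjusted p = 0.0121), and its other probe set also passed, at 3.87. The values of Zfp352 varied little within each condition, and the estimates at the 2 days were 2.99 and 3.01. Spz1, better known as a transcription factor of the testis, rose by 3.52 ± 0.39 (adjusted p = 0.0320), with 6.12 to 20.8 in controls and 86.4 to 164 in KO. Tcstv3, a 2-cell gene of the Tcstv family, rose by 3.0 ± 0.26 (adjusted p = 0.0176) but stayed dim, with a KO range of 49.97 to 76.9 and a floored fold of 2.33.

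The 17 measured list members that did not pass ranged from -0.63 to 4.94, and 11 of them were positive. The following are named after their values were seen. Arg2, an arginase, had the highest estimate among them at 4.94 ± 1.16 (adjusted p = 0.262), and Tcstv1 read 4.17 ± 0.82 (adjusted p = 0.207). Sp110, a nuclear body protein, lay just outside the threshold at 2.34 ± 0.31 (adjusted p = 0.0532). Zar1, Obox5 and Nlrp5, maternal or oocyte genes, read -0.14, -0.01 and -0.16. Of the genes higher, D13Ertd608e, Gm20767, AF067061 and Tcstv3 lie near each other on chromosome 13 in the RefSeq gene order of assembly GRCm38.p6. Between neighbours lie 16, 6 and 4 other genes. Only genes already called higher were looked up in this order, and the genes between them were not examined. D13Ertd608e rose by 2.77 ± 0.35 (adjusted p = 0.0499).

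**Figure D1:**
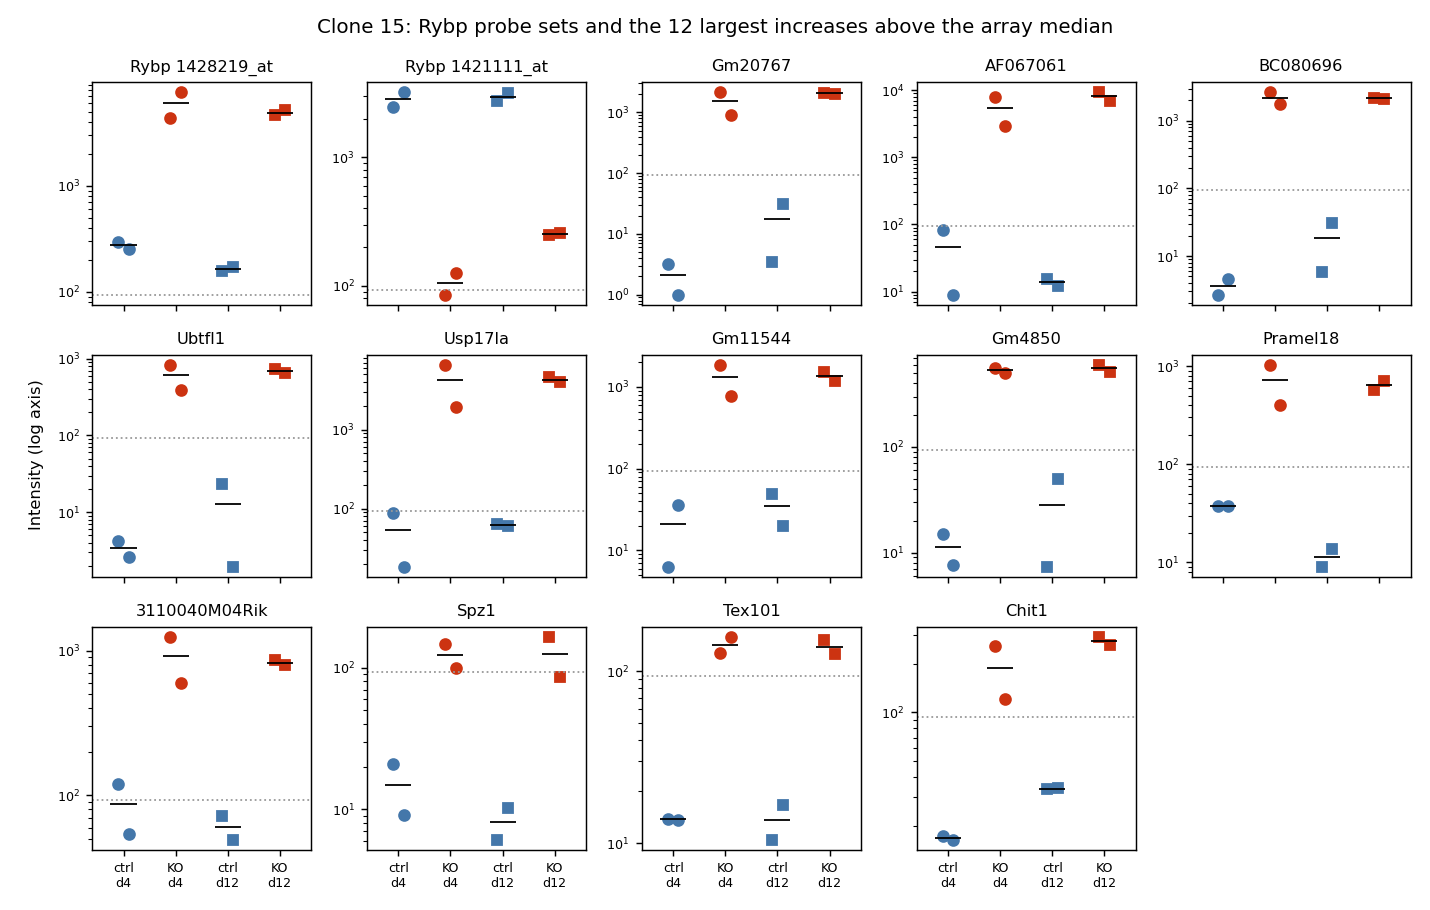
Intensity on a log axis for the 2 Rybp probe sets and the 12 largest increases within clone 15 among genes above the array median in KO, with 2 arrays per group as points (circles day 4, squares day 12, blue control, red KO), a black line at each group's mean and a dotted line at the array median of 93.3. In the 12 genes every KO point lies above every control point of its day, and Gm20767 reads 0.989 to 31.5 in controls and 899 to 2123 in KO.

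Families whose copies are too alike for a probe set of their own were tested apart, and they include Zscan4, Prame-like and other genes of the 2-cell embryo. Of 10090 probe sets with several gene symbols or none, 10 were higher (0.0991%) and 1 was lower (0.00991%). Probe set 1457033_at, which matches Zscan4a, Zscan4c, Zscan4d and Zscan4f, genes of the zinc finger family that marks the 2-cell-like state, read 166 and 95.9 at day 4 and 114 and 119 at day 12 in the controls, and 12881 and 6644 at day 4 and 10603 and 11241 at day 12 in the KO arrays. Its log2 fold change was 6.37 ± 0.33 (adjusted p = 0.000697), 6.20 at day 4 and 6.55 at day 12, and no KO value came near a control value. Probe set 1443961_at, which matches Gm4340 and its copies, read 168 and 174 at day 4 and 145 and 338 at day 12 in controls and 20836 and 15197 at day 4 and 20933 and 19009 at day 12 in KO, a log2 fold change of 6.60 ± 0.34 (adjusted p = 0.000697).

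Probe set 1427479_at, shared by Gm4027, BB287469 and the translation initiation factor gene Eif1a, rose by 6.63 ± 0.26 (adjusted p = 0.000388), with 59.0 to 82.3 in controls and 6178 to 8012 in KO. The probe set that carries Eif1a alone read 0.39 ± 0.20 (adjusted p = 0.654). Prame-like genes, a family of leucine-rich repeat proteins expanded in the mouse, were read by shared probe sets as well. Those that passed were 1442334_at (Gm13057, Gm13040 and Gm13043) at 7.08 ± 0.36, 1456598_at (Pramel42 and others) at 5.03 ± 0.53 and 1434584_a_at (Gm13102, Pramel5 and Pramel4) at 2.52 ± 0.26. Probe set 1449962_at (Pramel3 and others) read 3.39 ± 0.52 and did not pass (adjusted p = 0.154). Shared probe sets with larger p-values are not given here. Probe set 1447377_at, shared by Gm428 and related genes, rose by 3.75 ± 0.30. The 3 other increases that passed, at 5.70, 3.71 and 2.93, and the 1 decrease, 1420195_at at -3.25 ± 0.33, had no gene symbol. Probe set 1453700_s_at, which carries Duxf3, a Dux homeobox gene known to switch on 2-cell genes, read 42.3 to 61.1 in controls and 215 to 551 in KO. Its log2 fold change of 2.63 ± 0.37 did not pass (adjusted p = 0.108), although no KO array overlapped a control.

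**Figure D2:**
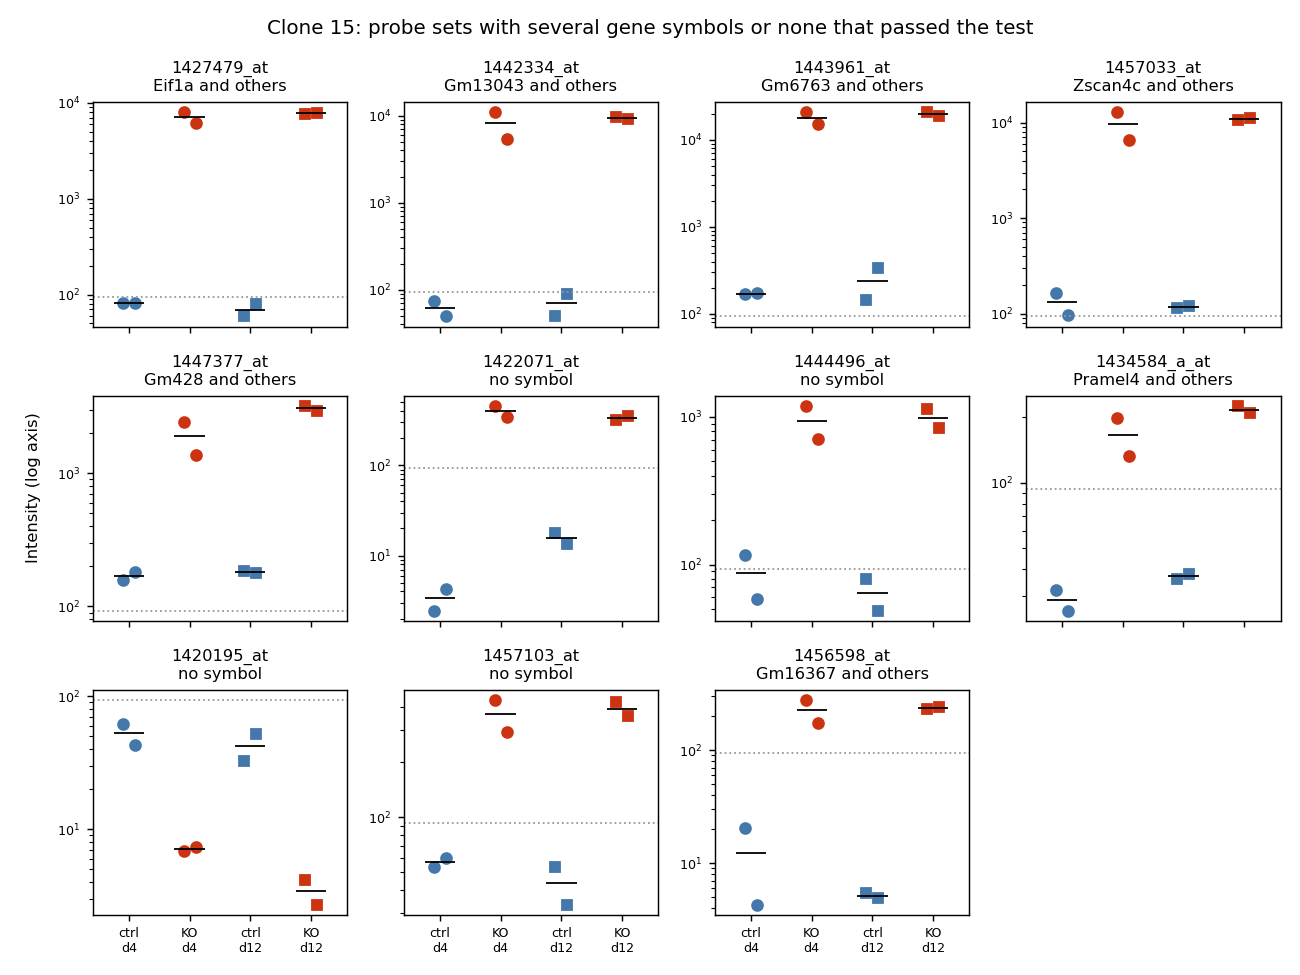
Intensity on a log axis for the 11 probe sets with several gene symbols or none that passed the test within clone 15, with points for arrays (circles day 4, squares day 12, blue control, red KO), a black line at each group's mean and a dotted line at the array median of 93.3. The Zscan4 probe set 1457033_at lies at 95.9 to 166 in controls and 6644 to 12881 in KO, and 1420195_at alone lies lower in KO.

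Genes of the synaptonemal complex and of meiotic recombination moved as well, though many members of this list did not pass. The synaptonemal complex is the protein zipper that holds homologous chromosomes together in meiosis. Of 26 measured genes 4 were higher, where 0.242% of all entries were, and 0 lower. KO lay above control at both days in 10 (38.5% against 5.62%) and below in 2 (7.69% against 3.87%), and the median was 0.61. All lists described here were chosen with earlier results of these data known, so such shares are no independent evidence of a list's direction. Sycp1, the transverse filament protein, read 39.9 and 70.9 at day 4 and 36.2 and 74.0 at day 12 in the controls, and 289 and 294 at day 4 and 226 and 297 at day 12 in the KO arrays. All KO arrays lay above all controls, with a log2 fold change of 2.39 ± 0.29 (adjusted p = 0.0455).

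Syce1, a central element protein of the same complex, read 299 and 285 at day 4 and 225 and 249.9 at day 12 in controls and 965 and 1059.8 at day 4 and 940.2 and 1050 at day 12 in KO. Its arrays were tight, and the log2 fold change was 1.93 ± 0.14 (adjusted p = 0.0121). Tex11, an X-linked crossover factor, rose by 1.95 ± 0.18 (adjusted p = 0.0198), with 98.7 to 155 in controls and 435 to 580.2 in KO. The fourth member that rose, Tex101, is a surface protein of germ cells rather than a meiotic factor. Tex101 read 13.9 and 13.7 at day 4 and 10.5 and 16.7 at day 12 in controls and 127 and 158 at day 4 and 151 and 126 at day 12 in KO, a log2 fold change of 3.37 ± 0.19 (adjusted p = 0.00761), with a floored fold of 4.94 because all controls lay under the floor.

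The other 22 members ranged from -2.32 to 1.62, and those below were chosen after their values were seen. Stra8, which starts the meiotic program in response to retinoic acid, read 1.62 ± 0.36 (adjusted p = 0.244), and Sycp2, an axial element protein, read 1.59 ± 0.26 (adjusted p = 0.116). In contrast Sycp3, the partner of Sycp2, was already well above the array median in controls, at 1187 to 2619, and read 1220.5 to 2398 in KO, a log2 fold change of -0.04 ± 0.29. Dmc1, the meiotic recombinase, read -0.13 ± 0.19, and Smc1b and Stag3, meiotic cohesin subunits, read -0.32 ± 0.30 and -0.34 ± 0.25. Members of 1 complex thus had different estimates, and the differences between members were not tested.

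Germ cell RNA regulators and piRNA pathway genes, which protect the germline from transposons and control translation there, included 3 genes higher and 0 lower of 22 measured. KO lay above control at both days in 10 of them (45.5% against 5.62%) and below in 1 (4.55% against 3.87%), and the list median was 0.80. Of all entries 0.242% were higher, and this list too was chosen with earlier results of these data known. Dazl, an RNA-binding protein that licenses germ cell development, read 830.1 and 596 at day 4 and 391 and 299 at day 12 in the controls, and 2783 and 2282 at day 4 and 2839 and 2316 at day 12 in the KO arrays. Even the highest control, day 4 replicate 1, lay below the lowest KO array, and the log2 fold change was 2.37 ± 0.28 (adjusted p = 0.0390), 1.84 at day 4 and 2.91 at day 12. The other Dazl probe set read 2.27.

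Mael, which works in the piRNA pathway, read 437 and 436 at day 4 and 444 and 292 at day 12 in controls and 1782 and 1922 at day 4 and 1942 and 2119 at day 12 in KO, a log2 fold change of 2.29 ± 0.19 (adjusted p = 0.0135). Ddx4, the germ cell RNA helicase also known as Vasa, read 652 and 658 at day 4 and 618 and 415 at day 12 in controls and 2023 and 2371 at day 4 and 1915 and 1589 at day 12 in KO, a log2 fold change of 1.76 ± 0.18 (adjusted p = 0.0213). All 3 genes were above the array median in every control array. Among the 19 members that did not pass, from -0.46 to 1.99 and named after their values were seen, Mov10l1 read 1.99 ± 0.36 (adjusted p = 0.167), Piwil2 1.36 ± 0.21 (adjusted p = 0.104) and Tdrkh 1.60 ± 0.23 (adjusted p = 0.0844). Rnf17 and Tdrd12, tudor domain proteins, read 0.15 ± 0.14 and -0.40 ± 0.16.

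Sohlh2, Slc25a31 and Catsperz are on none of the lists and were chosen after their values were seen, so they add nothing to the counts above. Sohlh2, a transcription factor of early germ cells, read 362 and 342 at day 4 and 419 and 380.2 at day 12 in controls and 1177 and 1083 at day 4 and 1842 and 1796 at day 12 in KO, a log2 fold change of 1.94 ± 0.16 (adjusted p = 0.0135). Slc25a31, the germ cell form of the mitochondrial ADP/ATP carrier, read 105 and 171 at day 4 and 84.6 and 72.7 at day 12 in controls and 458 and 854 at day 4 and 459 and 433 at day 12 in KO, a log2 fold change of 2.37 ± 0.26 (adjusted p = 0.0304). Catsperz, a subunit of the sperm calcium channel, rose by 1.76 ± 0.17 (adjusted p = 0.0213), with 127 to 193 in controls and 469.9 to 575 in KO. In each of these 3 genes the lowest KO array exceeded the highest control.

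Promoter sequences are shown for some of the genes higher because E2F6 and MGA, partners of Rybp in a variant PRC1, are known to bind the E2F site and the E-box. The E-box letters searched were CACGTG, which reads the same on both strands, and the E2F letters were TCCCGC on either strand, and the motifs share no overlapping match here. The window ran from 250 bases before to 50 after the start site. Of the 43 genes higher, 32 had a window in the RefSeq table of build GRCm38.p6. CACGTG was found in 6 of the 32 (18.8%), against 10.2% of 14452 tested genes with a window and 7.15% of all 32851 windows. TCCCGC was found in 8 of the 32 (25%), against 32.9% of tested genes and 20.0% of all windows. Both were found in 4 of the 32 (12.5%: Ddx4, Mael, Slc25a31 and Sycp1), against 3.65% of tested genes and 1.99% of all windows. Both motifs were also common among members of the meiosis and germ cell RNA lists as a whole, called or not. Of 40 measured members with a window CACGTG was found in 40%, TCCCGC in 42.5% and both in 22.5%, and of the 6 that were higher each was found in 3. Among the 5 genes higher on the 2-cell list that had a window, 0 held either motif. A match is a description of letters, not a binding site. The 120 bases before the start are printed from 5′ to 3′ on the gene's strand, with CACGTG and TCCCGC in capitals, for the 4 higher genes with an E-box in that stretch and for Dazl, which has none.
Ddx4 (chr13:112652311-112652430, minus strand): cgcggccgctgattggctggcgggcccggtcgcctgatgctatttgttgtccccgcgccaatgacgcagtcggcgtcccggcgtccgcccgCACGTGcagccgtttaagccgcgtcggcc
Sycp1 (chr3:102936101-102936220, minus strand): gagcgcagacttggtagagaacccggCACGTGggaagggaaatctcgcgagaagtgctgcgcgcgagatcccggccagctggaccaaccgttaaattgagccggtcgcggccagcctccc
Slc25a31 (chr3:40708751-40708870, plus strand): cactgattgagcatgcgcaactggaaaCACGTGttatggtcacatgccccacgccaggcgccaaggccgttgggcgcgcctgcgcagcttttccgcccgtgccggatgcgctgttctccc
Lonrf3 (chrX:36328289-36328408, plus strand): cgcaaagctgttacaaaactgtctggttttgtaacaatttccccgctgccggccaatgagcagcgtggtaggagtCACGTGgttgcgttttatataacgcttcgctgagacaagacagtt
Dazl (chr17:50293621-50293740, minus strand): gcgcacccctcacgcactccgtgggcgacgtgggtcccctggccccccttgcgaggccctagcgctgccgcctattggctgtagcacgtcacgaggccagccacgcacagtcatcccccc
The E-box begins 29 bases before the start in Ddx4, 94 before it in Sycp1, 93 in Slc25a31 and 45 in Lonrf3. Lonrf3, a RING finger gene on the X chromosome, read 102 and 159.5 at day 4 and 112 and 88.3 at day 12 in controls and 489 and 483 at day 4 and 679 and 557 at day 12 in KO, a log2 fold change of 2.28 ± 0.23 (adjusted p = 0.0245).

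The Rhox genes are a cluster of homeobox genes on the X chromosome that is active in germ cells and placenta. Of 4 measured members 2 were higher, where 0.242% of all entries were, and 0 lower. KO lay above control at both days in 3 of the 4 (75% against 5.62%), and the median was 1.17. The Rhox and Prame-like lists were also chosen with earlier results of these data known. Rhox13 read 171 and 156 at day 4 and 155 and 115 at day 12 in the controls, and 623 and 921 at day 4 and 1182 and 827 at day 12 in the KO arrays, a log2 fold change of 2.55 ± 0.25 (adjusted p = 0.0213). Rhox6 read 509.9 and 478 at day 4 and 769 and 604 at day 12 in controls and 1263 and 1149 at day 4 and 2470.2 and 1826 at day 12 in KO, a log2 fold change of 1.46 ± 0.18 (adjusted p = 0.0420), with no overlap at either day. The 2 members that did not pass were Rhox9 at 0.87 ± 0.26 and Rhox5 at 0.67 ± 0.15. In the Prame-like family 1 of 6 measured genes was higher, and the same 1 lay above control at both days (16.7% against 5.62%). This was Pramel18, which read 38.0 and 37.3 at day 4 and 8.93 and 13.8 at day 12 in controls and 1029.8 and 405 at day 4 and 575 and 697 at day 12 in KO, a log2 fold change of 4.97 ± 0.46 (adjusted p = 0.0198) and a floored fold of 19.6. The other 5 ranged from -0.96 to 0.84, with Pramel12 at 0.84 ± 0.26 and Pramel13 at 0.23 ± 0.14.

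Of the 43 genes higher, 24 are on none of the lists. Except for the largest increases, those described here were chosen after their values were seen, and what each is known for is background. Fabp5, a fatty acid binding protein, was bright throughout, at 3934 and 3899 at day 4 and 3234 and 3482 at day 12 in controls and 8751 and 7993 at day 4 and 7519 and 7685 at day 12 in KO. Its log2 fold change of 1.14 ± 0.12 (adjusted p = 0.0282) was the smallest among the genes called, and its 4 KO arrays were close together. Scd3, a stearoyl-CoA desaturase, read 242 and 271 at day 4 and 237 and 248 at day 12 in controls and 1021 and 664 at day 4 and 909 and 799 at day 12 in KO, a log2 fold change of 1.75 ± 0.18 (adjusted p = 0.0222). Crabp1, a cellular retinoic acid binding protein, read 407 and 467 at day 4 and 701 and 423 at day 12 in controls and 1223 and 1331 at day 4 and 1612 and 1708 at day 12 in KO, a log2 fold change of 1.58 ± 0.19 (adjusted p = 0.0420).

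Gm11544 and 3110040M04Rik were among the largest increases. Gm11544 read 6.21 and 35.8 at day 4 and 49.2 and 20.0 at day 12 in controls and 1865 and 774 at day 4 and 1514 and 1195 at day 12 in KO, a log2 fold change of 5.88 ± 0.64 (adjusted p = 0.0304) and a floored fold of 36.9. 3110040M04Rik read 119.98 and 53.9 at day 4 and 71.9 and 49.5 at day 12 in controls and 1241 and 597 at day 4 and 857 and 792 at day 12 in KO, a log2 fold change of 3.60 ± 0.35 (adjusted p = 0.0213). Chit1, a chitin-degrading enzyme, rose by 3.20 ± 0.25 (adjusted p = 0.0135), with 16.4 to 34.1 in controls and 120.25 to 291 in KO, with KO day 4 replicate 2 the lowest KO array.

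Pdlim3, an actin-associated protein of muscle, rose by 2.69 ± 0.22, with 56.0 to 105 in controls and 546 to 593 in KO. Slc10a6, a transporter of sulphated steroids, rose by 2.64 ± 0.28, with 55.4 to 85.9 in controls and 273 to 626 in KO. In both genes the lowest KO array exceeded the highest control.

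Guca1a, a regulator of guanylate cyclase in photoreceptors, rose by 2.18 ± 0.18, with 125 to 223 in controls and 567 to 874 in KO. Cwc22, a splicing factor, rose by 1.14 ± 0.14, with 812 to 1015 in controls and 1836 to 2406 in KO. Also higher were Tmem132c at 2.69 ± 0.34, Prr18 at 2.50 ± 0.26 and Tspan18, a tetraspanin, at 1.51 ± 0.15. Their other probe sets, none of which passed, read 1.21 for Tmem132c, 3.05 for Prr18 and 0.27 and 0.82 for Tspan18. All of these genes lay above the array median in KO.

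Some calls rest on a single probe set of several, or on dim values. Trpm1, a cation channel of retina and pigment cells, rose by 3.07 ± 0.37 (adjusted p = 0.0420), while its 3 other probe sets read -0.26 to 0.18. Hhip, an antagonist of hedgehog signalling, rose by 2.32 ± 0.29 (adjusted p = 0.0499) on a dim probe set, while 3 others read -0.49 to 0.34. Of the 43 genes, 10 had a second probe set, and in 1 of them, Zfp352, another probe set passed. Dim, meaning below the array median in both conditions, were 5 genes, Tcstv3 and Hhip, and also Defb8 (a defensin), Kcnh5 (a potassium channel) and Ipw (an imprinted RNA without a protein). Kcnh5 read 1.13 to 4.20 in controls and 18.6 to 25.3 in KO, entirely under the floor, so its fitted change of 3.49 ± 0.40 has no floored fold above 1. Defb8, at 1.36 to 3.50 and 20.4 to 31.2, had a floored fold of 1.03.

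The single gene lower apart from Rybp was Tmem100, a membrane protein known from blood vessel development. It read 53.5 and 31.3 at day 4 and 62.5 and 50.6 at day 12 in controls and 6.69 and 6.73 at day 4 and 6.17 and 9.87 at day 12 in KO, below the array median on every array. The log2 fold change was -2.73 ± 0.24 (adjusted p = 0.0176), and with low values raised to the floor the adjusted p was 0.238. Its other probe set read 0.50, and clone 10 read 0.81. The genes next to the threshold were Hhip, D13Ertd608e and Tmem132c inside it, each at an adjusted p of 0.0499, and Abhd3 at 2.22 with 0.0525 and Dgat2, an enzyme of fat synthesis, at 1.21 with 0.0526 outside it.

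At day 4 and at day 12 taken singly, with 2 arrays against 2 and the spread pooled over the 4 groups, 0 entries passed. The smallest adjusted p by limma was 0.0780 at day 4, where 1013 entries had an unadjusted p under 0.05, and 0.123 at day 12, where 1252 had. The effect of OHT differed between the days for 0 entries (smallest adjusted p 0.447, 715 at an unadjusted p under 0.05). Among the 43 genes higher, 28 had the larger estimate at day 12. Their differences between the days, day 12 minus day 4, ran from -2.0 to 1.73 on the log2 scale, and every one had an adjusted p of 0.9999. Gm20767 read 9.61 at day 4 and 7.61 at day 12, and BC080696 9.27 and 7.33. In contrast AF067061 read 7.45 and 9.16, and Pramel18 4.10 and 5.84. None of these gaps between the days passed the test of the difference.

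**Figure D3:**
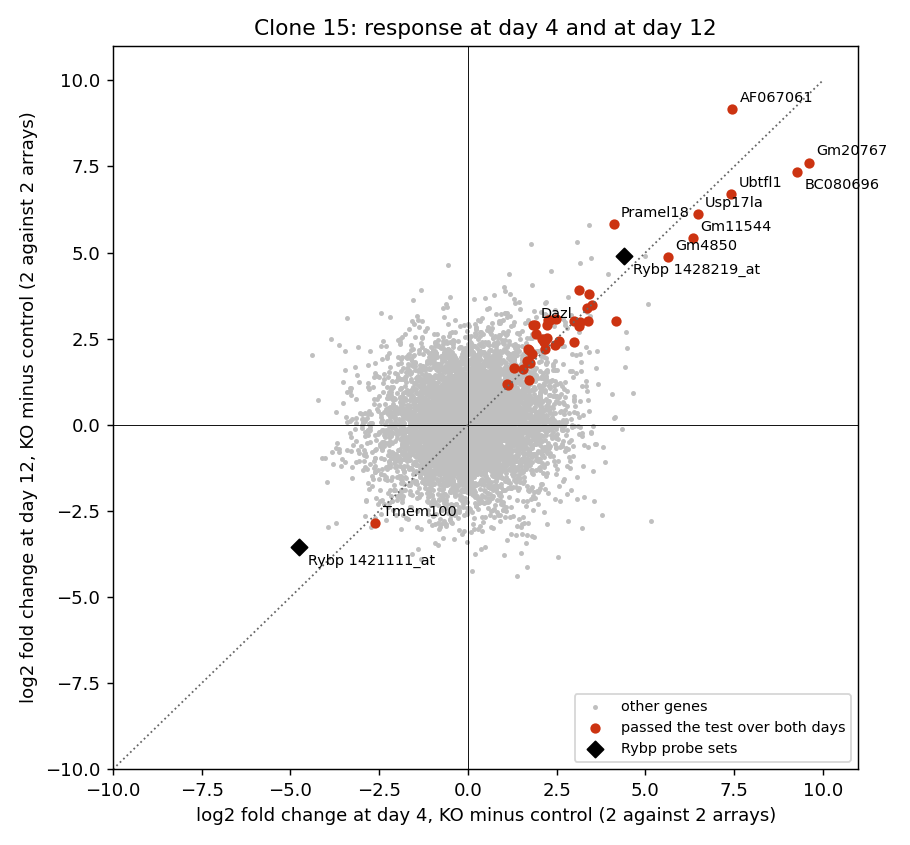
Log2 fold change of KO against control at day 4 (horizontal axis) and at day 12 (vertical axis) for all entries tested within clone 15, with genes that passed the test over both days in red, the Rybp probe sets as black diamonds and a dotted line at equal values. The red genes lie along the line, from Fabp5 at 1.09 and 1.18 to Gm20767 at 9.61 and 7.61, with Tmem100 the single red point at lower left.

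Genes that hold the pluripotent state were not called in the fit reported. Fbxo15, given below, passed with low values raised to the floor (adjusted p = 0.0480). It also passed with genes under the array median left out (0.0385). Of 33 measured genes of naive pluripotency, 0 passed, 6 lay above and 1 below control at both days (18.2% and 3.03%, against 5.62% and 3.87%), and the median was -0.0017. The 2 with the largest estimates were Tbx3, a transcription factor, at 1.10 ± 0.24 (adjusted p = 0.239) and Fbxo15, an ES cell gene, at 0.81 ± 0.15 (adjusted p = 0.169). In the list of primed epiblast genes, the state that follows in development, 0 of 17 passed, 0 lay above and 2 below at both days, and the median was -0.12. Otx2, a homeobox factor of that state, read 1706 and 2504 at day 4 and 1735 and 1771 at day 12 in controls and 908 and 1411 at day 4 and 616 and 564 at day 12 in KO, a log2 fold change of -1.22 ± 0.24 (adjusted p = 0.211). Myb, a proto-oncogene transcription factor, read 1993 and 1137 at day 4 and 1615 and 1226 at day 12 in controls and 838 and 631 at day 4 and 502 and 419.8 at day 12 in KO, a log2 fold change of -1.33 ± 0.25 (adjusted p = 0.194). In both genes every KO array lay below the controls of its day, but neither passed in the fit reported. With genes under the array median left out Myb passed (adjusted p = 0.0448) and Otx2 did not (0.0530).

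No list of another lineage had a called member in the fit reported. With genes under the array median left out, Igfbp3 (adjusted p = 0.0186) and P4ha2 (0.0173), both given below, passed. In the trophectoderm list, the outer layer that forms placenta, 6 of 25 genes lay above at both days (24.0% against 5.62%) and the median was 0.44, with Igfbp3, an IGF binding protein that is also on the feeder fibroblast list, at 1.89 ± 0.30 (adjusted p = 0.104) and Hand1 at 1.05 ± 0.64 (adjusted p = 0.719). The other probe set of Hand1 read -0.88 and that of Igfbp3 1.54. Among 42 primitive endoderm genes 35 had a positive estimate and 5 lay above at both days (11.9% against 5.62%). Their median was 0.43, against 0.02 over all entries. By day it was 0.03 at day 4 and 0.75 at day 12. P4ha2, a collagen-modifying enzyme on that list, read 1.18 ± 0.18 (adjusted p = 0.0953). The mesoderm median was 0.28 over 23 genes and the neural one -0.04 over 24. Of 33 Hox genes, classical Polycomb targets, 25 stayed under the array median on all 8 arrays. The list median was 0.07, with Hoxa5 at 0.07 ± 0.12 and Hoxa9 at -0.04 ± 0.92. Their other probe sets read -0.79 for Hoxa5 and 1.31 for Hoxa9.

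The Polycomb complexes themselves gave no calls in the fit reported. Medians were -0.04 over 13 canonical PRC1 subunits, -0.07 over 21 variant PRC1 subunits and -0.09 over 11 subunits of PRC2, the histone H3 methylating complex. Phc2, a canonical PRC1 subunit, read 0.98 ± 0.21 (adjusted p = 0.239). E2f6, of the variant complex, read 0.59 ± 0.21 (adjusted p = 0.467), and Ezh1, a PRC2 enzyme, read -0.54 ± 0.14 (adjusted p = 0.304). For DNA methylation and retroviral silencing factors the median was -0.04 over 28 genes. Primordial germ cell specification genes, the earliest step of the germline, had 0 of 12 called and a median of -0.07, with Stk31 at 1.54 ± 0.30 (adjusted p = 0.211) and Ybx2 at -0.67 ± 0.76. The list of imprinted genes, which does not hold the called RNA Ipw (2.39 ± 0.28, adjusted p = 0.0393), had 0 of 37 called. On it Cdkn1c, a growth inhibitor, read 1.36 ± 0.25 (adjusted p = 0.176) and Ndn 0.95 ± 0.19 (adjusted p = 0.217). The 7 other probe sets of Ndn read -1.20 to 2.20.

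Stress, signalling and metabolic lists held no called gene either in the fit reported. With genes under the array median left out, Psmb9 (adjusted p = 0.0372), Cnpy1 (0.0448), Cdkn1c (0.0385) and P4ha2 (0.0173) of these lists passed. Medians were -0.15 for 32 p53 targets and cell cycle inhibitors, -0.12 for 34 interferon and antigen processing genes and -0.15 for 27 FGF-ERK genes. They were 0.01 for 31 amino acid stress genes, 0.01 for 24 chaperones, -0.14 for 29 glycolysis and hypoxia genes and 0.02 for 20 cholesterol synthesis genes. Among their named members, Psmb9, an immunoproteasome subunit, read 0.81 ± 0.15 (adjusted p = 0.162) and Slc6a15, an amino acid transporter, read -0.82 ± 0.16 (adjusted p = 0.211). Cnpy1, an FGF signalling regulator, read -1.06 ± 0.20 (adjusted p = 0.194). Oestrogen receptor targets, looked at because OHT binds that receptor, had 0 of 16 called and a median of -0.02. Ramp3 read 0.69 ± 0.17 and Cxcl12 -0.69 ± 0.15. OHT was given for 24 hours and the arrays are from days 4 and 12, so an earlier response could have been missed. An effect of the drug by itself was not tested. The 22 housekeeping genes had a median of -0.0032, with Gusb at 0.57 ± 0.21 and B2m at 0.30 ± 0.19.

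**Figure D4:**
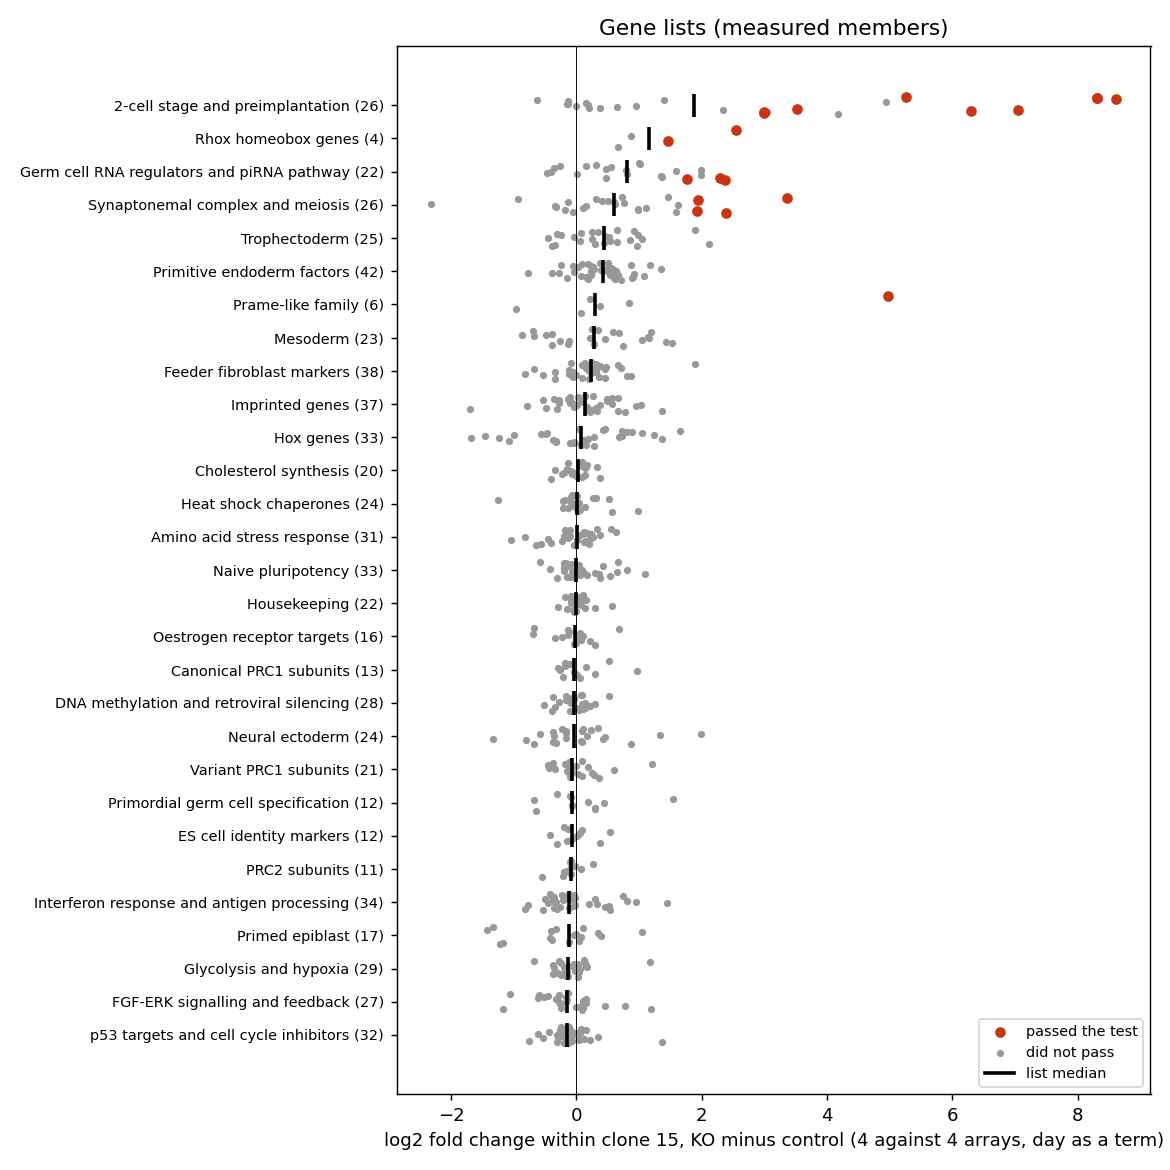
Log2 fold change within clone 15 (KO minus control over both days, horizontal axis) of every measured member of 29 gene lists, with members that passed in red, others in grey, a black bar at each list's median and the number measured in brackets. Red points occur in the 2-cell, meiosis, germ cell RNA, Rhox and Prame-like lists, and the 2-cell median lies at 1.87.

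Markers of feeder cells and signs of RNA quality were read beside these groups. Of 38 feeder fibroblast genes 0 passed, 5 lay above and 0 below at both days (13.2% against 5.62%), and the median was 0.23. Among the defining markers, the collagens read 0.21 for Col1a1, -0.33 for Col1a2 and 0.09 for Col3a1. Col1a1 lay at 98.6 to 425 in controls and 105 to 372 in KO. Pdgfrb read -0.0015, Dcn -0.54, Lum -0.81 and Postn -0.11. Thy1, a surface protein of fibroblasts, read 0.87 ± 0.40 (adjusted p = 0.621). The highest estimate on this list was that of Igfbp3, at 1.89 ± 0.30. The 18S ribosomal RNA control stood apart by replicate number at day 4. Its log2 intensity was 7.30 in control and 7.82 in KO for replicate 1, against 9.85 and 9.87 for replicate 2, and 6.94 to 8.30 on the day 12 arrays. KO day 4 replicate 2, one of the arrays high in 18S, was the lowest KO array in 23 of the 43 genes higher. The log2 ratio of 3′ to 5′ signal for the transferrin receptor was 1.001 to 1.17 in controls and 1.08 to 1.35 in KO. That ratio was higher in KO in 3 of 4 same-numbered pairs, as it was for actin and pyruvate carboxylase, and in 0 of 4 for Gapdh. The part of RNA quality or feeder content in the results was not tested.

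Clone 10 was read beside clone 15 for the same genes, and its arrays, controls included, are separate from those of clone 15. Of the 43 genes higher in clone 15, 41 had a positive estimate in clone 10. Of the 43, 35 passed there as well, in a fit to all 16 arrays in which 121 entries were higher in clone 10 (0.665%). That fit pools the spread over all 16 arrays, unlike the fit to the 8 arrays of clone 15. With the spread so pooled, 96 entries were higher in clone 15. The exceptions in sign were Defb8 at -0.48 and Kcnh5 at -0.85, both dim in clone 15. Dazl read 2.37 in clone 15 and 2.36 in clone 10, Mael 2.29 and 2.34, and Ddx4 1.76 and 1.91. Chosen after their values were seen as genes with unlike estimates, Ubtfl1 read 7.05 in clone 15 and 4.91 in clone 10, Slc10a6 2.64 and 1.42, whereas Gm11544 read 5.88 and 7.52 and Pramel18 4.97 and 6.20. None of the 43 passed the test of the difference between the clones (adjusted p of 0.99994 for every one), and 0 entries passed it over all (585 at an unadjusted p under 0.05). The entry nearest to it was Rybp probe set 1428219_at, with a control mean of 219.9 in clone 15 and 2102.5 in clone 10. The next were C8a, a complement gene, at -5.31 (adjusted p = 0.101) and Wt1os, an antisense RNA, at 4.74 (adjusted p = 0.240), both dim.

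**Figure D5:**
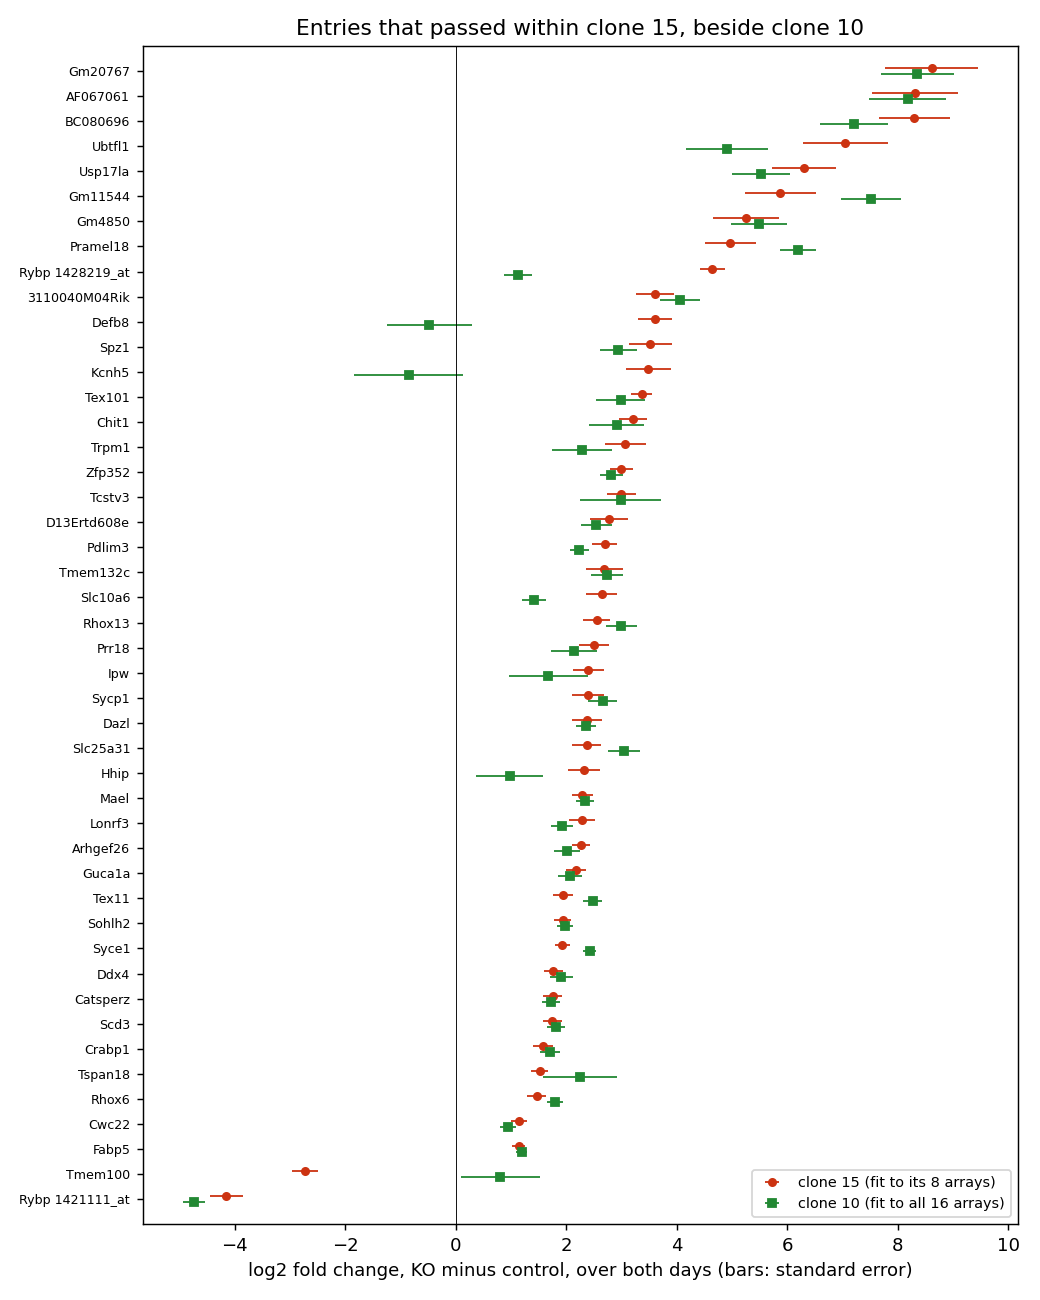
Log2 fold change of KO against control over both days, with bars for the standard error, for the 46 entries that passed within clone 15, in clone 15 (red circles) and in clone 10 (green squares). The clones lie side by side for Dazl at 2.37 and 2.36, and apart for Rybp 1428219_at at 4.64 and 1.13. At this probe set the control mean was 219.9 in clone 15 and 2102.5 in clone 10.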

How the data were processed

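Total RNA was labelled with biotin and hybridised to Affymetrix arrays, per the labels' protocols. The deposited table holds linear intensity per probe set. Affymetrix Expression Console and RMA are the tools named, without versions, in the submitters' processing notes. All arrays hold the same sorted values, so they had been quantile-normalized before deposit. Its 45101 probe sets are those of the 430 2.0 array, although the design text says 430A 2.0. Genome build and annotation of the table are not given in the sources used here.

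Intensities were log2-transformed with no offset. The platform annotation gave 34945 probe sets 1 gene symbol, 932 several and 9160 none, with 64 array controls dropped. The brightest probe set stood for each of 18193 genes, and the 2 Rybp probe sets were added. limma 3.58.1 (R 4.3.3) fitted day and OHT to the 8 arrays (5 residual degrees of freedom), with empirical Bayes moderation and Benjamini-Hochberg adjustment, after a check on simulated data. Day-wise effects came from a mean per group, and differences between clones from a fit to all 16 arrays. The number of arrays limits the precision.

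Named genes were the Rybp probe sets, the 12 largest increases and decreases called at both days with a brighter condition above the array median, up to 5 called members per list, and otherwise the 2 largest estimates above that median. Members, lists and alternatives were chosen with earlier results of these data known. Sequences and gene order are from RefSeq, build GRCm38.p6. Alternatives were an offset of 16, the floor, a filter on dim genes, other probe set rules, a mean-variance trend, pooled spread, a replicate block, no day term and each array left out.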

Additional observations from a re-analysis of the deposited data

How the results depend on the processing

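Calls at an adjusted p under 0.05 moved with the processing as follows, given as higher and lower, where the counts at both days were the same unless stated. They were 44 and 2 in the fit reported, 75 and 4 with an offset of 16, 85 and 15 with the floor, 81 and 12 without dim genes, and 84 and 9 with a mean-variance trend. With the spread pooled over 16 arrays they were 96 and 11 (95 and 11 at both days). They were 32 and 6 with every probe set tested (29 of the 44 higher passed again) and 41 and 1 with the mean of probe sets (39 of the 44). Deviations of same-numbered arrays correlated at 0.174 (day 4) and 0.0312 (day 12), which was not taken as pairing, although 18S RNA differed by number at day 4. With a replicate block 1 was higher and 0 lower (1393 and 1077 at an unadjusted p under 0.05 by limma). Leaving out 1 array gave 0 to 22 higher and 0 to 4 lower.

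For single days, 0 passed in the fit reported. At day 4 it was 4 with the offset, 21 with the floor, 15 without dim genes, 20 with the trend and 33 pooled. At day 12 it was 21, 27, 36, 32 and 64 in that order. The difference between days had 1 call with the floor. The difference between clones had 2 with the floor, and 1 with the offset, without dim genes, with the mean of probe sets, with the trend or with the replicate block, Rybp probe set 1428219_at being among them in these 6 settings, and 0 to 1 with an array left out. The cause of these moves was not tested. Of 1738 gene values under alternatives, 383 no longer passed (296 of them with an array left out) and 33 passed newly. Values of Igfbp3, P4ha2, Fbxo15, Psmb9, Cdkn1c, Cnpy1 and Myb were among those that passed newly. No value that passed in either fit changed sign, while 20 values that passed in neither did, in 7 genes (C2cd6, Hoxa9, Hoxa5, Utf1, Atf3, Grip1os1 and Wt1os). Signal over background limits the dimmest calls, since 4 of the 43 genes higher had a floored fold under 2.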
